A study of Mus musculus with 6 samples.

Results

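The adult control nasal mucosa was described from the 3 libraries of dissected nasal conchae that carry the wild-type label, out of 6 libraries in the series. Members were all genes with a read count in at least 1 of these libraries, which were 31651 of the 49164 genes for which the deposited gene table holds counts. The control mice are labelled as males of a c57Bl6/ICR crossbred background, aged 3 months, untreated and with an olfactory bulb of normal size, and each library came from a separate labelled replicate. The other 3 libraries came from sFlt1 mice, a cross of a camk2a-tTa driver line with a tet-sFlt1 line in which tetracycline was withdrawn at embryonic day 13.5, and they were not compared here. Libraries were made from 200 ng of total RNA. Their counts summed to 32194320 in control replicate 1, 28832424 in control replicate 2 and 46444862 in control replicate 3. All values describe these 3 libraries, and no test was made between them.

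The nasal conchae are thin bones covered by mucosa. Their olfactory epithelium holds sensory neurons, each thought to express a single odorant receptor gene, together with supporting (sustentacular) cells, basal stem cells and Bowman's glands, while respiratory epithelium with motile cilia covers other surfaces. Odorants dissolve in mucus that is rich in lipocalins and other secreted proteins, bind a receptor on the neuron's cilia and act through a G protein, adenylyl cyclase and a cyclic nucleotide-gated channel, and enzymes of the supporting cells and glands break odorants down.

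Levels of different genes are given in TPM, which are counts per kilobase of merged exon length scaled to the same total in each library. The same gene is compared between libraries in TPM or in CPM, its count scaled by the library's total count without regard to length. Raw counts, where given, are not scaled for the library totals, which differ. A gene was called detected where each of the 3 libraries held 10 or more counts, and this held for 18185 genes. Fewer cells of a type and less RNA per cell cannot be told apart in such bulk tissue.

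The 3 libraries were not interchangeable, and each stood apart in its own way. In control replicate 1, Xist, the RNA of the inactive X chromosome, had 743 CPM, against 0.139 CPM in control replicate 2 and 0.151 CPM in control replicate 3. The Y-linked genes Ddx3y and Eif2s3y had 0 counts in control replicate 1, against 1346 and 1641 counts in control replicate 2 and 3116 and 2623 counts in control replicate 3. Uty, also Y-linked, had 1.36 TPM in control replicate 1, against 10.7 and 10.4 TPM. Control replicate 1 thus went against its male label, and it also held the highest levels of bone and fibroblast genes. Control replicate 2 held the highest levels of skeletal muscle genes. Control replicate 3 held the highest levels of brain neuron and glial genes. Values are therefore mostly given for each library, and several list medians that rest on 1 library are also given without it.

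Protein-coding genes took nearly all counts of the gene types that carry values. They held 98.25%, 98.41% and 98.44% of the counts in control replicates 1, 2 and 3. Several types carry no values and could not contribute to these shares. Among them are 2206 miRNA, 1507 snoRNA, 1381 snRNA and 354 rRNA entries. Long noncoding RNAs held 1.28% ± 0.11 (SD, n = 3), TEC entries, which are unverified transcript models, 0.166% ± 0.024, and the 9 pseudogene types together 0.186% ± 0.043. The share of genes detected also differed between types. Of 21884 protein-coding genes 72.5% were detected, against 15.7% of 9949 long noncoding RNA genes and 1.32% of 9999 processed pseudogenes. Within the long noncoding RNAs, BC051076 had the highest mean, with 1214, 1979 and 2338 CPM in control replicates 1, 2 and 3. Malat1, a nuclear-retained RNA found in most cells, had 1388, 1045 and 1072 CPM and was the higher of the 2 in control replicate 1. The polymorphic pseudogene with the highest count was Dicer1, which the table lists under that type although it encodes the enzyme that cuts small RNAs from their precursors, with 144, 128 and 113 CPM.

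Counts were concentrated in few genes. The 10 most abundant genes of each library held 9.62% of its counts in control replicate 1, 11.8% in control replicate 2 and 9.08% in control replicate 3. The first 1000 held 48.7%, 51.5% and 47.3%. The 100 genes with the highest mean share held 23.8% ± 2.53 (SD, n = 3). Among detected genes with a known length the median level was 11.6 TPM, the central 90% ran from 0.759 to 123 TPM (5th and 95th percentile), and 70 genes were at 1000 TPM or more. Katnal1, which encodes a subunit of a microtubule-severing enzyme, lay at that median, with 12.7, 9.48 and 12.8 TPM in control replicates 1, 2 and 3. Csnk2a2, a catalytic subunit of casein kinase 2, lay there too, with 12.57, 10.13 and 12.22 TPM.

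The 25 genes with the highest mean level were led by the mitochondrial genome and by secreted proteins. They comprised 7 mitochondrial genes, 9 members of the gland list, 2 of the sustentacular list and 1 of the mature neuron list, and together held 36.0% of all TPM. Another 3 of the 25 carry only model names and are not described.

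**Figure D1:**
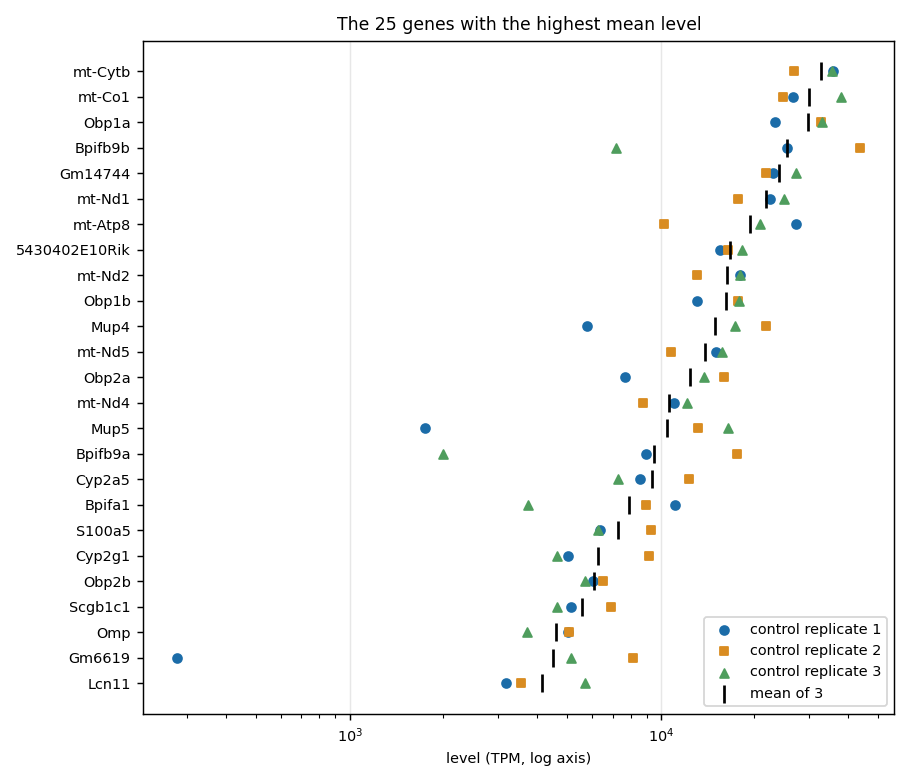
Level of the 25 genes with the highest mean TPM (rows, from the highest at the top) in the 3 control libraries (points; TPM on a log axis), with the mean as a black tick. Bpifb9b, Bpifb9a and Bpifa1 are lowest in control replicate 3 and Mup4 and Mup5 are lowest in control replicate 1.

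Secreted proteins of the glands took a share of counts that differed between libraries. The 31 genes found of the 33 on the gland list held 5.07% of all counts in control replicate 1, 7.83% in control replicate 2 and 3.07% in control replicate 3. Of these 31 genes, 28 were detected and 27 lay above the median of all detected genes. Their median was 310.3 TPM with all libraries and 125.7 TPM without control replicate 1. Levels within the list ran from 29636 TPM for Obp1a to 0 counts in every library for Prol1, a salivary-type secretory gene.

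The odorant-binding lipocalins, small secreted carriers of hydrophobic odorants, were high in every library. Obp1a had 23239, 32762 and 32907 TPM in control replicates 1, 2 and 3. Obp1b had 13064, 17702 and 17817 TPM. Obp2a had 7686, 15907 and 13739 TPM, and Obp2b had 6042, 6534 and 5724 TPM. The 4 Obp genes together took 1.73% ± 0.356 of all counts (SD, n = 3), with the lowest value in control replicate 1. Obp1b shares 73.5% of its 50-base words with transcripts of other genes, mainly Gm14743, so that its value depends on how the submitters' counting treated shared reads, whereas Obp1a shares 7.203%.

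The BPI-fold proteins are secreted lipid-binding proteins of the airways, and several are antimicrobial or surface-active. Bpifb9b had the highest mean CPM of all genes. It had 25406 TPM in control replicate 1, 43757 TPM in control replicate 2 and 7201 TPM in control replicate 3. The similar gene Bpifb9a followed the same order, with 8941, 17542 and 1995 TPM. These 2 genes share 71.4% of their 50-base words, so that reads may be split between them. Bpifa1 (SPLUNC1), a surfactant-like airway protein that shares none, had 11133, 8934 and 3730 TPM. The whole family of 14 Bpif genes, of which 9 were detected, took 3.31%, 5.48% and 0.963% of counts, and control replicate 3 was the lowest.

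The major urinary proteins are lipocalins that carry pheromones in urine and nasal secretions. Of 49 Mup genes in the table, 3 were detected, and Mup4 and Mup5 held 99.98% of the family's mean CPM. Mup4 had 5782, 21726 and 17303 TPM, and Mup5 had 1747, 13124 and 16448 TPM in control replicates 1, 2 and 3. Control replicate 1, the library with Xist, lay below both others for each gene, and the part of sex in these values was not tested. Lcn3 and Lcn4, lipocalins of the nasal glands, were instead highest in control replicate 1. Lcn3 had 2217, 214 and 346 TPM and Lcn4 had 1017, 106 and 146 TPM, so that both means rest on control replicate 1. Scgb1c1, a secretoglobin, was steadier, with 5154, 6916 and 4642 TPM.

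Genes of sustentacular cells had the highest median of any cell-type list, 362.8 TPM, with list medians of 415, 461 and 306 TPM in control replicates 1, 2 and 3. Of the 17 genes, 16 were detected and the same number lay above the median of all detected genes. Cyp2a5, a cytochrome P450 that oxidises odorants, had 8587, 12315 and 7305 TPM. Cyp2g1, a P450 found in olfactory mucosa, had 5026, 9187 and 4634 TPM. Sec14l3, a lipid-binding protein, had 3944, 4906 and 3587 TPM, and the carbonyl reductase Cbr2 had 3534, 4375 and 3019 TPM. Control replicate 2 was the highest for each of these genes, and control replicate 3 the lowest. Sox2, a transcription factor of supporting and basal cells, differed little, with 190, 185 and 175 TPM.

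Only Ugt2a1, an olfactory glucuronosyltransferase, was undetected on that list, at 0.257 TPM on average. Its longest transcript shares 97.02% of its 50-base words with other genes and 68.4% with Ugt2a2, which had 9.97, 12.9 and 11.1 CPM in control replicates 1, 2 and 3. The low value of Ugt2a1 thus stands beside near-complete sharing, and the part of that sharing was not tested. Across the wider set of 36 genes for odorant metabolism, 33 were detected and 32 lay above the median of all detected genes. The P450 genes took 1.31%, 2.07% and 1.18% of counts, with 41 of 134 detected, and Cyp2a5 and Cyp2g1 held 76.6% of the family's mean CPM.

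All 25 genes on the list of mature olfactory neurons were detected, and all 25 lay above the median of detected genes. Together they took 2.16%, 2.05% and 1.47% of counts in control replicates 1, 2 and 3. Omp, the olfactory marker protein, had 5044, 5075 and 3720 TPM and ranked 23rd of all genes. Gfy, a Golgi protein of these neurons, had 4899, 3279 and 2268 TPM. Stoml3, a stomatin-family protein of olfactory cilia, had 3389, 2810 and 2534 TPM. S100a5, a calcium-binding protein that olfactory neurons express, was higher than any of them, with 6379, 9275 and 6280 TPM. Control replicate 3 was the lowest of the 3 libraries for each of these 4 genes, while the lowest gene of the list, the adhesion molecule Ncam2, had 29.2, 24.9 and 26.5 TPM.

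Genes of the transduction cascade differed in level in this bulk tissue, where the cell types that contribute to each gene cannot be told apart. The list of the cascade had the highest median of all, 427 TPM, and 19 of 19 genes found lay above the median of detected genes. Most of these genes, Omp among them, also stand on the mature neuron list, so the lists do not count separate genes. Among G protein subunits, Gnb1 had 1497 ± 185 TPM, Gng13 had 1112 ± 277 TPM and the olfactory alpha subunit Gnal had 604 ± 115 TPM (SD, n = 3). Gng13 shares 46.4% of its 50-base words with Chtf18, which had 8.64, 4.09 and 3.79 CPM. Adcy3, the adenylyl cyclase of olfactory cilia, had 422, 481 and 379 TPM. The channel subunits stood in the order Cnga2, Cnga4 and Cngb1, at 539 ± 97.5, 274 ± 49.7 and 121 ± 19.5 TPM, and the ranges of the 3 genes did not overlap. The calcium-activated chloride channel Ano2 had 182 ± 36.6 TPM, above Cngb1 in each library. The chloride loader Slc12a2 had 123.5 ± 6.81 TPM and overlapped Cngb1. The sodium-calcium exchanger Slc24a4 had 55.6 ± 4.57 TPM, and the receptor kinase Grk3 had the lowest level of the cascade, 13.7 ± 3.31 TPM.

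**Figure D2:**
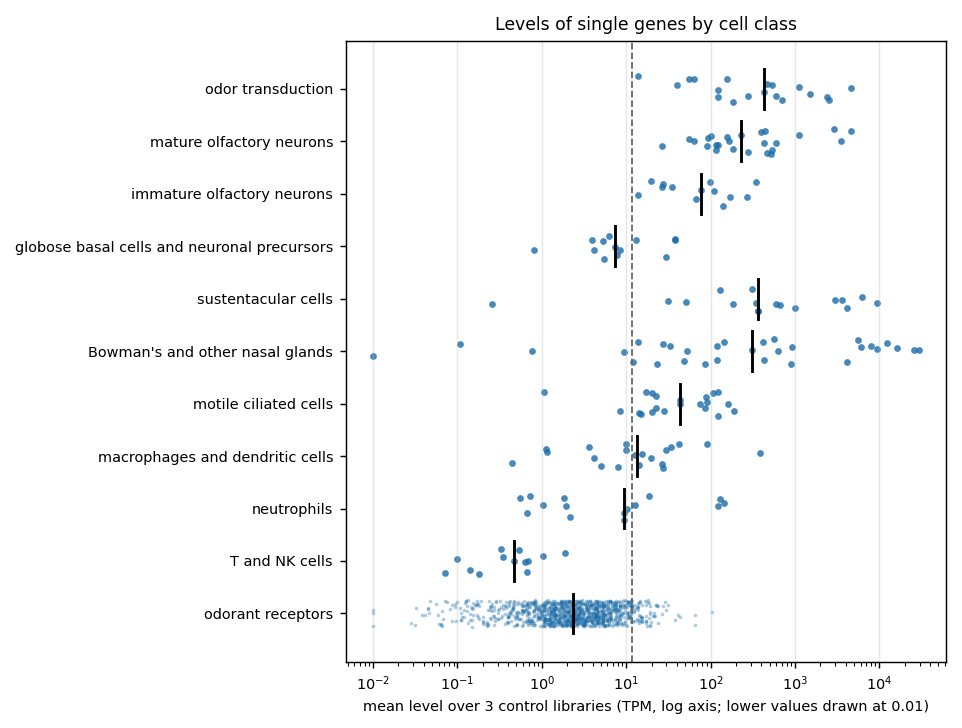
Mean level over the 3 control libraries of each gene of 10 cell-class lists and of the odorant receptors (points; TPM on a log axis), with the median of each class as a black bar and the median of all detected genes as a dashed line. Neuronal, sustentacular and gland genes lie mostly to the right of the line, and T and NK cell genes and most receptors to its left.

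Promoters of several of these genes hold the palindromic core CCCNNGGG, to which Ebf (Olf-1) transcription factors bind. In RefSeq promoters of GRCm38.p6, searched from 250 bases before to 50 after the start on both strands, the core was found in 10 of the 20 mature neuron genes with an entry. The share among all 27025 genes with a promoter was 15.4%. The longer palindrome TCCCNNGGGA, which contains the core, was found in 1 of the 20 genes, Gfy, and in 1.06% of all genes. Both forms and the motifs named further on were chosen among several that were tried. A match is only a match of letters. The stretches that hold the core upstream of the start are shown for 3 channel genes, the exchanger Slc24a4 and Gng13, which carry the signal described above, and for Gfy, which also holds the longer form. The core is in capitals, 5′ to 3′ on the gene's strand.
Cnga2, chrX:71991767-71991806, plus strand: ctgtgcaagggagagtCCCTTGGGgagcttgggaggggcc
Cngb1, chr8:95306691-95306730, minus strand: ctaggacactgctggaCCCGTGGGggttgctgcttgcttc
Ano2, chr6:125711105-125711144, plus strand: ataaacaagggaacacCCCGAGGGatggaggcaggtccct
Slc24a4, chr12:102128602-102128641, plus strand: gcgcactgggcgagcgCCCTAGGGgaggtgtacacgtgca
Gng13, chr17:25717061-25717100, plus strand: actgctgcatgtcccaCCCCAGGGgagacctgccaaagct
Gfy, chr7:45179615-45179654, minus strand: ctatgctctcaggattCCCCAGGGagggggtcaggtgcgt
The first base of the core lies 66 bases before the start in Cnga2, 129 in Cngb1, 67 in Ano2, 109 in Slc24a4, 95 in Gng13 and 41 in Gfy. Ebf1 and Ebf2, which encode such factors, had 93.2 ± 31.1 and 164 ± 33.2 TPM (SD, n = 3). Among odorant receptors with a promoter entry, 27 of 906 held the core. Promoters of the mature neuron list averaged 42.7% A and T bases and receptor promoters 63.9%, against 46.2% in all promoters. The part of base content in these shares was not tested.

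Genes of receptor trafficking and choice had a median of 93.2 TPM, or 197.0 TPM with coding length in place of exon length. Atf5, a transcription factor induced when a receptor is first expressed, led with 2656, 1855 and 1457 TPM in control replicates 1, 2 and 3. Rtp1 and Rtp2, chaperones that bring receptors to the surface, had 436 ± 84.9 and 395 ± 116 TPM (SD, n = 3). All 15 genes of this list were detected, and Smchd1, a chromatin protein, was the lowest, with 13.3, 9.63 and 11.1 TPM.

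List medians were lower for immature neurons than for mature neurons, and lower again for precursors, in each of the 3 libraries. The 13 genes of immature neurons were all detected, with a median of 76.7 TPM. Tubb3, a neuronal tubulin, had 412, 309 and 308 TPM and the growth cone protein Gap43 had 183, 49.6 and 95.6 TPM. Precursor genes had a median of 7.43 TPM, below the 11.6 TPM of all detected genes. The proliferation marker Mki67 had 9.71, 2.37 and 3.67 TPM. Of the 12 precursor genes with a mean of 1 CPM or more, 7 were over 2-fold higher in control replicate 1 than in both others, which was so for 3.24% of all genes at that level. Genes of horizontal basal cells, the resting stem cells, had list medians of 11.4, 10.5 and 10.4 TPM, and Krt5, a basal keratin, had 86.4, 73.3 and 40.7 TPM.

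All 21 genes of motile ciliated cells were detected, with a median of 42.9 TPM, and for the leading genes control replicate 1 was the highest and control replicate 3 the lowest. Rsph1, a radial spoke protein, had 269, 184 and 119 TPM in control replicates 1, 2 and 3. Foxj1, the transcription factor of motile cilia, had 242, 152 and 88.7 TPM. Cfap126, a cilia- and flagella-associated protein, had 175, 128 and 61.7 TPM. Summed counts of the list were 1982, 1487 and 752 CPM. The lowest gene was Mcidas, a transient regulator of multiciliated cells, at 1.07 TPM. Promoters of 9 of the 16 ciliated genes with an entry held GTTGCC, the repeated unit of the X-box to which RFX factors bind, against 14.1% of all genes. A longer form, GTTNCC directly followed by ATGG, was found in 2 of the 16 and in 1.33% of all genes. The match in Sntn, a protein of the ciliary tip, is shown because it holds the longer form upstream of the start, with that form in capitals.
Sntn, chr14:13670794-13670835, plus strand: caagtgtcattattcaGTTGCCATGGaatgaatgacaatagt

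Other epithelial cells were represented by few high genes. Among goblet and secretory genes, Agr2, a chaperone for mucin folding, had 336, 464 and 307 TPM, whereas Scgb1a1, the club cell secretoglobin, averaged 0.628 TPM and Tff3 had 0 counts in every library. In the list of tuft and ionocyte-type microvillar cells, Coch had 321, 430 and 379 TPM and Ascl3 had 125, 122 and 100 TPM. Chat, which makes acetylcholine, averaged 0.275 TPM. The summed counts of that list were among the most even, with 679, 792 and 669 CPM in control replicates 1, 2 and 3.

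**Figure D3:**
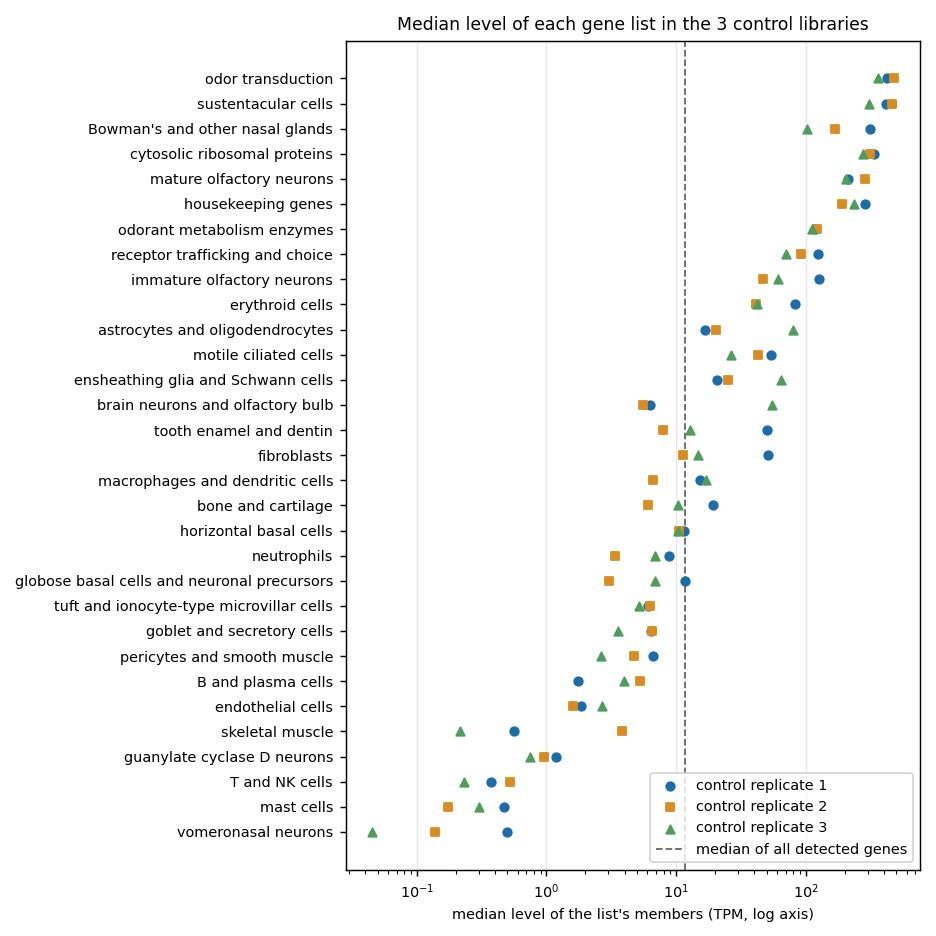
Median level of the members of 31 gene lists (rows) in each control library (points; TPM on a log axis), ordered by the median of the members' means, with the median of all detected genes as a dashed line. Transduction, sustentacular, gland, ribosomal and mature neuron genes lie highest, and mast cell, T and NK cell and vomeronasal genes lowest. Within control replicates 1, 2 and 3 taken singly, the gland list ranks 4, 6 and 7.

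Most neighbours in the order of the 32 lists were not separated by their spread. Of the 31 pairs of neighbouring lists, 4 had ranges over libraries that did not overlap and 27 overlapped. The gland and mature neuron lists changed places between libraries, while each lay above the ciliated list in all 3 libraries. The ribosomal list lay above both in all 3 libraries, although its range overlapped theirs.

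Among the immune lists, the macrophage list had the highest median over all members with values, in each library. The mast cell list had the lowest median of the members' means. The T and NK cell list was lower than it in control replicate 1 (0.371 against 0.472 TPM) and in control replicate 3 (0.231 against 0.302 TPM). The macrophage and dendritic cell list had a median of 13.5 TPM, with list medians of 15.4, 6.60 and 16.9 TPM in control replicates 1, 2 and 3. All 20 genes were detected and 11 lay above the median of detected genes. Lyz2, a lysozyme, had 437, 526 and 205 TPM, Cd74, the invariant chain, 101, 95.2 and 76.3 TPM, and the complement gene C1qa 50.4, 25.6 and 51.6 TPM. By CPM, control replicate 1 was the highest for 10 of the 20 genes and control replicate 3 for 8. Control replicate 2 was the highest for 2, Lyz2 among them, so that Lyz2 departed from most of its list. Neutrophil genes had a median of 9.34 TPM, led by Ltf, lactoferrin, which also stands on the gland list, and by S100a9, with 173, 38.3 and 172 TPM. T and NK cell genes had a median of 0.465 TPM, 6 of 13 were detected, and none lay above the median of detected genes. Mast cell genes had a median of 0.291 TPM, with 2 of 10 detected, and the tryptase Tpsab1 had 0 counts in every library. The order depended on undetected members. Detected members alone had medians of 14.2 TPM for mast cells, 13.5 TPM for macrophages and dendritic cells and 0.660 TPM for T and NK cells. Antibody genes such as Igkc and Ighm are among the 6250 entries that carry no value in the table and were not analysed here. Of the B and plasma cell genes with values, Jchain, which joins secreted antibodies, had 10.8, 17.96 and 12.2 TPM, and Ms4a1, which encodes CD20, averaged 1.13 TPM.

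Blood vessel, blood and stroma genes covered a wide range. Endothelial genes had a median of 2.12 TPM, and Cldn5, a tight junction protein of endothelium, was the highest, with 28.3, 25.1 and 85.5 TPM in control replicates 1, 2 and 3. Haemoglobin genes of blood were high, with Hbb-bs at 4358, 2530 and 1532 TPM, although Hbb-bs shares 65.8% of its 50-base words with other genes. Rgs5, a pericyte marker, had 482, 439 and 333 TPM. The fibroblast list had a median of 25.4 TPM with all libraries and 12.8 TPM without control replicate 1, and the bone and cartilage list 10.85 TPM with all libraries and 7.198 TPM without it. Erythroid genes had a median of 55.1 TPM, which became 328.3 TPM with detected members alone and 28.9 TPM with coding length. Pericyte and smooth muscle genes had a median of 4.46 TPM. Tooth enamel and dentin genes had a median of 26.4 TPM with all libraries and 14.4 TPM without control replicate 1, and Amelx, the enamel protein amelogenin, had 492, 60.1 and 401 TPM. Skeletal muscle genes had a median of 1.49 TPM with all libraries and 0.368 TPM without control replicate 2.

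The libraries also held transcripts of 1159 of the 1162 odorant receptors in the deposited receptor table, which comprises 1096 protein-coding genes and 66 pseudogene models. Receptors took 0.648% of counts in control replicate 1 (95% Wilson interval 0.645 to 0.651%), 0.622% in control replicate 2 (0.619 to 0.625%) and 0.420% in control replicate 3 (0.418 to 0.422%). These intervals cover counting error only, and the libraries differed by more than them. In all, 957 receptors were detected. Receptors with at least 1 count numbered 1135, 1136 and 1110, and thinning each library to 179255 receptor counts gave 1132, 1136 and 1107. Detected receptors had a median of 2.96 TPM, which is percentile 22.2 of all detected genes.

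The highest receptors differed between libraries. Olfr1507 on chromosome 14 had 997, 2305 and 9438 counts in control replicates 1, 2 and 3 and took 4.84% of receptor counts in control replicate 3. Olfr536 on chromosome 7 had 1272, 2885 and 7309 counts. Olfr728, on chromosome 14 like Olfr1507, had 1403, 3065 and 4038 counts. Relative to all gene counts of the library, Olfr1507 and Olfr536 were highest in control replicate 3, with 203 and 157 CPM, whereas Olfr728 was highest in control replicate 2, with 106 CPM. Control replicate 3 had the lowest receptor share. Olfr533 had 2650, 2017 and 2091 counts (82.3, 70.0 and 45.0 CPM), and Olfr166 had 2221, 782 and 1916 counts (69.0, 27.1 and 41.25 CPM). Olfr1372-ps1, a transcribed pseudogene model, stood among the 10 highest, with 1736, 1414 and 2700 counts (53.9, 49.0 and 58.1 CPM). The remaining 4 of the first 10 were Olfr309, Olfr727, Olfr15 and Olfr1226, at 34.7 to 44.3 CPM on average.

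Receptor counts were spread widely, more so in control replicates 1 and 2. The 10 highest receptors of each library took 8.71%, 9.70% and 18.4% of receptor counts, and the 100 highest took 38.5%, 38.9% and 49.4%. In control replicate 1, 158 receptors made up 50% of receptor counts, in control replicate 2 the number was 156 and in control replicate 3 it was 103. Of the 50 highest receptors of each library, 20 were shared by all 3. The highest library exceeded the lowest by over 4-fold for 20.4% of the 957 detected receptors, against 8.17% of all detected genes. Detected receptors had a median of 3.40 CPM, and this comparison was not matched for level. Receptors are close paralogs, and 345 of the 1162 shared over 10% of their 50-base words with other genes, 13 over 50% and 221 none.

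**Figure D4:**
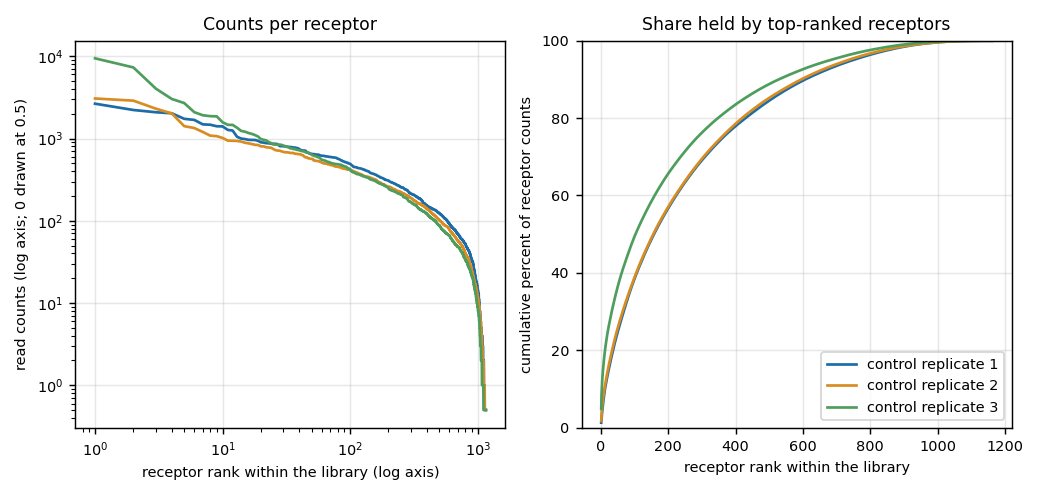
Read counts of each odorant receptor by rank within its library (left; both axes log) and the cumulative percent of receptor counts held by the top-ranked receptors (right), for the 3 control libraries (lines). Control replicate 3 starts higher on the left and its curve lies above the other two on the right, where its first 100 receptors hold 49.4% of receptor counts.

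Other chemoreceptor families differed in how many genes were detected. Of 16 trace amine receptor genes, which sense volatile amines, 10 were detected, with a sum of 21.6, 22.3 and 15.8 CPM in control replicates 1, 2 and 3, and Taar6 was the highest at 11.0 ± 1.67 TPM (SD, n = 3). Of 350 Vmn1r genes 7 were detected and of 240 Vmn2r genes 8 were, and no gene of either family averaged over 0.638 TPM. The Vmn1r sum was 39.0, 14.95 and 11.2 CPM. The vomeronasal channel gene Trpc2 had 0 counts in every library, but it shares 98.3% of its 50-base words with other genes, mainly Xntrpc, which had 0.932, 0.763 and 0.581 CPM. The vomeronasal list had a median of 0.274 TPM with all libraries and 0.0911 TPM without control replicate 1, and its highest genes were Nsg1, Gnai2, Gnao1 and Robo2, which other neurons also express. None of the 40 bitter taste receptor genes was detected, nor any of the 8 formyl peptide receptor genes. Gucy2d, the guanylate cyclase of necklace neurons, had 1.39, 2.14 and 0.536 TPM, and its list had a median of 1.17 TPM.

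The 13 protein genes of the mitochondrial genome took 5.98%, 4.87% and 6.60% of counts, and they split into 2 groups that did not overlap. The 2 rRNA and 22 tRNA entries of that genome carry no value, so that these shares are partial. The 8 higher genes averaged from 324 CPM for mt-Nd6 to 16133 CPM for mt-Co1. The other 5, mt-Nd3, mt-Co3, mt-Atp6, mt-Co2 and mt-Nd4l, averaged from 14.4 CPM down to 0.326 CPM. These genes encode subunits of the same respiratory chain complexes and of ATP synthase. The 5 low genes share 97.99% to 100% of their 50-base words with gene models on chromosome 1, copies of mitochondrial DNA in the nuclear genome, while the 8 others share 0% to 62.2% with annotated transcripts. The partner models Gm28438, Gm28437, Gm10925, Gm28661 and Gm10222 each had at most 0.932 CPM in any library. The first 60 bases of mt-Co2, on the plus strand of the mitochondrial genome at chrMT:7013-7072, are shown because the model Gm28661 holds the same 60 bases at its own start.
mt-Co2: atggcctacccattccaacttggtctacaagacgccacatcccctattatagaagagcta
The handling of reads that match several places was not stated in the labels, and the part of such reads in the 5 low values was not tested.

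The spread between libraries differed widely between lists. The SD of log2 CPM over the 3 libraries had a median of 0.28 over 17984 genes that passed a filter on low counts, and edgeR's common biological coefficient of variation was 0.395. Without control replicate 3 the median was 0.18 and the coefficient 0.243. Control replicates 1 and 2 differed by over 2-fold in 3.46% of the 11058 genes with a mean of 10 CPM or more, replicates 1 and 3 in 12.5% and replicates 2 and 3 in 11.0%. Ribosomal protein genes were the most even list, with a median SD of 0.14, and odor transduction genes had 0.24. Ciliated genes had 0.75, gland genes 0.82, bone genes 1.33 and brain genes 1.75. Odorant receptors, of which 937 passed the filter, had 0.69. The spread also varied with level, and the median SD of all genes was 0.46 at 1 to 10 CPM and 0.21 at 10 to 100 CPM.

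**Figure D5:**
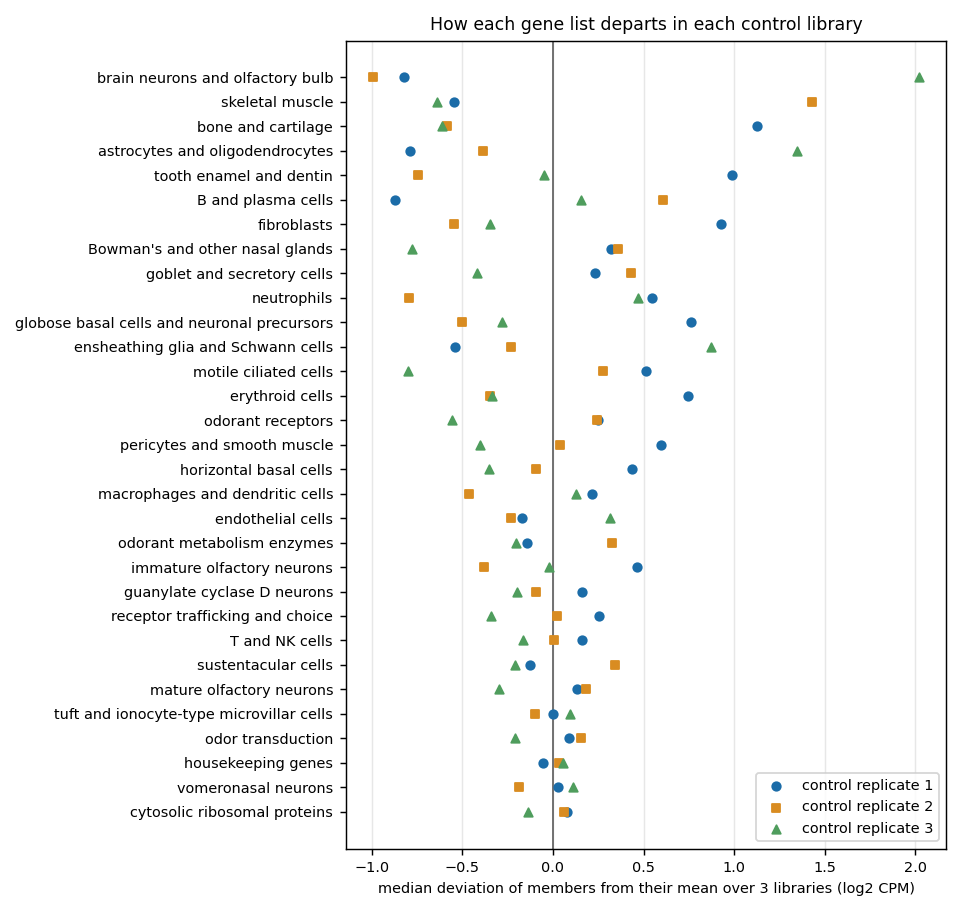
Median deviation of the members of each list from their own mean over the 3 libraries (rows, with the most variable list at the top; log2 CPM) in each control library (points). Brain and glial lists lie to the right in control replicate 3, bone, fibroblast and precursor lists in control replicate 1, and skeletal muscle in control replicate 2.

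Brain transcripts set control replicate 3 apart. Gad1, which makes the transmitter GABA, had 548 CPM in control replicate 3, against 28.7 CPM in control replicate 1 and 25.5 CPM in control replicate 2. Th, which makes dopamine precursors and marks bulb interneurons, had 87.1 CPM in control replicate 3, against 5.34 and 9.05 CPM in the other libraries. Slc17a7, a glutamate transporter of excitatory brain neurons, had 201 CPM in control replicate 3, against 11.9 and 5.72 CPM. Of the 25 genes on the brain and bulb list, 22 were over 2-fold higher in control replicate 3 than in both others, against 8.82% of all genes with a mean of 1 CPM or more. The same held for 10 of 16 genes of ensheathing glia and Schwann cells and for 9 of 13 genes of astrocytes and oligodendrocytes. Fabp7, a fatty acid-binding protein of ensheathing glia, had 2069 TPM in control replicate 3, against 296 and 595 TPM. The brain list had a median of 26.8 TPM with all libraries and 4.63 TPM without control replicate 3, and the glial lists had 40.4 and 48.7 TPM with it and 21.3 and 18.5 TPM without it. In this library the summed counts of mature neuron, ciliated and receptor genes were the lowest of the 3, and the part of the brain transcripts in that order was not tested.

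Bone and connective tissue transcripts set control replicate 1 apart. Col1a1 and Col1a2, the chains of type I collagen, had 3085 and 2059 CPM in control replicate 1, against 308 and 197 CPM in control replicate 2 and 226 and 166 CPM in control replicate 3. Ibsp, a bone matrix protein, had 124 CPM in control replicate 1, against 16.4 and 11.8 CPM. Of the 16 bone and cartilage genes with a mean of 1 CPM or more, 11 were over 2-fold higher in control replicate 1 than in both others, and of 14 fibroblast genes 8 were, against 3.24% of all genes at that level. Crisp1 and Dcpp3, which encode secreted proteins, were also highest there, with 43.1 and 32.1 CPM, against 0.624 and 0.0347 CPM in control replicate 2 and 2.15 and 2.76 CPM in control replicate 3. Among the 11058 genes with a mean of 10 CPM or more, 139 (1.26%) were over 2-fold higher in control replicate 1 than in both others, 38 (0.344%) in control replicate 2 and 750 (6.78%) in control replicate 3.

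Control replicate 2 was apart in muscle genes. The 15 skeletal muscle genes summed to 45.9 CPM there, against 7.89 CPM in control replicate 1 and 4.99 CPM in control replicate 3. Acta1, the actin of skeletal muscle, had 149 counts in control replicate 2, against 16 and 40 counts. Gland genes were split between libraries. Of the 28 gland genes with a mean of 1 CPM or more, 3 were over 2-fold higher in control replicate 2 than in both others, against 1.17% of all genes at that level, and 6 were so in control replicate 1, against 3.24%. Pip, a secreted protein of exocrine glands, had 281 CPM in control replicate 2, against 34.4 and 8.48 CPM, and Bpifa6 had 160.5 CPM, against 0 and 15.6 CPM.

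Several processed pseudogenes had counts in some libraries and almost none in others. Vcp-rs had 1343 counts in control replicate 2, against 1 and 2 counts in control replicates 1 and 3. Rpl34-ps1 had 644 counts in control replicate 2, against 0 in both others. Glo1-ps had 0 counts in control replicate 1, 572 in control replicate 2 and 1095 in control replicate 3, and Rnps1-ps had 0, 423 and 346 counts. These models share much of their sequence with the genes they were copied from. Vcp-rs shares 83.2% of its 50-base words with Vcp, Glo1-ps 78.5% with Glo1 and Rnps1-ps 72.2% with Rnps1. They were singled out after their values were seen.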

How the data were processed

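RNA was measured in 3 control libraries. The authors deposited whole-number read counts for each Ensembl gene, with no scaling. The submitters' processing notes name cutadapt 3.5, TopHat2 2.2.1, HTSeq 2.0.1, DESeq2 1.26.0 and the build GRCm39. The strand setting of the counting was not stated in the labels, so that a gene and its antisense partner cannot be told apart (Xist and Tsix among them). Entries with no value (6250) and 48 other columns of per-sample values were not used. Counts in the receptor table differed from those in the gene table for 0 receptors. Another 252 genes with receptor symbols lie outside the receptor table, with at most 5 counts each.

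CPM are counts scaled by each library's total. TPM use merged exon lengths from GENCODE M21 (GRCm38, lengths only), matched by Ensembl ID for 48361 of 49164 genes and at least 99.95% of counts; CPM and TPM were computed here. Coordinates of promoters and of the mitochondrial stretch are of GRCm38; the other gene positions were not used. Shared sequence is the percent of 50-base words of a gene's longest GENCODE M21 transcript found exactly, on either strand, in annotated transcripts of other genes. Spread was computed in R 4.3.3 with edgeR 4.0.16 (filterByExpr, TMM, prior count 2) and DESeq2 1.42.0 size factors as an alternative, after a check on simulated counts. No test between groups was made. Where labels do not say that replicates were separate cages or litters, the spread may also be technical. The 32 gene lists (484 genes) and the members were chosen with earlier results of these data known. Named genes were the 25 highest by TPM, the 15 highest by counts, the 3 highest and the all-zero members of each list, the leading gene of each type, the 10 highest receptors, and for each library the 8 genes most above and 3 most below both others, plus the genes nearest the median level and Omp, Xist, Gad1 and Th. Gene models were only counted, except as sequence partners of a named gene, as BC051076 and in the account of pseudogenes. Other named genes, most of them list members, were chosen after their values were seen.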

Additional observations from a re-analysis of the deposited data

How the results depend on the processing

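No paired analysis was possible because no groups were compared. Leaving out 1 control replicate gave protein-coding shares of 98.33 to 98.43%, mitochondrial shares of 5.42 to 6.29%, 18375 to 18912 genes detected, top 100 shares of 22.4 to 24.9%, receptor shares of 0.521 to 0.635%, 969 to 984 receptors detected and a median SD of log2 CPM of 0.18 to 0.27. It gave list medians of 192.1 to 252.1 TPM for mature neurons, 321.5 to 412.6 TPM for sustentacular cells, 125.7 to 358.8 TPM for glands, 35.9 to 50.97 TPM for ciliated cells and 10.9 to 16.7 TPM for macrophages. The protein-coding share was 98.19% without the 10 most abundant genes in the total, and the top 100 share was 19.55% without mitochondrial genes. The mature neuron level was 277.7 TPM as a mean of log2 levels (pseudocount 0.1). With detected members alone, the sustentacular median was 478.9 TPM and the gland median 429.1 TPM. Lengths from GENCODE M21 other than merged exons were chosen after seeing the data. Coding length gave 150.8 TPM for glands and 26.7 TPM for ciliated cells, and the longest transcript gave 513.8 TPM for sustentacular cells. Coding length also gave 197.0 TPM for receptor trafficking and choice, 5.82 TPM for neutrophils, 28.9 TPM for erythroid cells, 15.6 TPM for tooth, 0.173 TPM for mast cells and 0.148 TPM for vomeronasal neurons. Detected members alone gave 30.8 TPM for goblet cells, 186.4 TPM for odorant metabolism, 328.3 TPM for erythroid cells, 68.3 TPM for tooth, 3.30 TPM for muscle, 14.2 TPM for mast cells and 79.0 TPM for vomeronasal neurons. The mean of log2 levels gave 8.65 TPM for microvillar cells, 6.85 TPM for pericytes, 32.4 TPM for astrocytes and oligodendrocytes, 34.4 TPM for erythroid cells, 14.9 TPM for tooth, 0.486 TPM for mast cells and 1.68 TPM for vomeronasal neurons. The cause of these changes was not tested. Coding length from a protein table was not run. Over all lists, 215 alternatives moved the median by less than its SD over libraries and 41 moved it by more. Some of these alternatives left out 1 control replicate, and the SD came from the same libraries. A library that stands apart thus raises the SD against which its own removal is judged. The brain list without control replicate 3 fell by less than its SD for this reason. The tally therefore does not show that list medians hold without single libraries. Depth limits single receptors, whose median was 68.5 to 98 counts per library.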
